A study of Mus musculus with 21 samples.

Results

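Macrophages take in the heme of aged red blood cells, break it down, and store or return its iron. This account follows 10 genes of that work, listed by symbol and matched to the Ensembl gene IDs of the count table: Hmox1, Blvra, Blvrb, Slc40a1, Tfrc, Slc11a1, Slc11a2, Fth1, Ftl1 and Ncoa4. The table holds 54532 genes, and each of the 10 passed the filter on low counts that left 22935 genes for testing. The cells came from digested adipose tissue of C57BL/6 males given a normal diet (lean) or a high fat diet (obese) over 16 weeks, and were sorted by flow cytometry. The labels name no age, allele or agent besides these. The 21 RNA-seq libraries form 7 groups of 3. Both diets gave macrophages low in MHCII, macrophages positive for MHCII and negative for CD11c, and cells labelled as derived from monocytes, while macrophages positive for MHCII and CD11c came from obese mice. The labels do not say whether the replicates of a group were separate or pooled animals, so p-values measure the spread between these samples.

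Heme oxygenase 1, the product of Hmox1, opens the heme ring and frees iron, carbon monoxide and biliverdin. Biliverdin reductase A (Blvra) turns that biliverdin into bilirubin, and Blvrb encodes biliverdin reductase B. Freed iron is held in ferritin, a shell of heavy (Fth1) and light (Ftl1) chains, or leaves the cell through ferroportin (Slc40a1). Iron also enters on transferrin through the transferrin receptor (Tfrc), crosses the endosome membrane through DMT1 (Slc11a2), and is pumped out of phagosomes by NRAMP1 (Slc11a1). Ncoa4 encodes the receptor that delivers ferritin to lysosomes for release of its iron. In mammals the iron regulatory proteins, encoded by Aco1 and Ireb2, bind hairpins called iron-responsive elements when iron is scarce. Bound in a 5′ UTR the hairpin blocks translation, and bound in the 3′ UTR of Tfrc it protects the transcript from decay. RNA levels therefore do not read out the step that this system controls for ferritin and ferroportin.

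Hairpins of this kind were sought in the annotated UTRs by a strict sequence pattern. The pattern was a C, 5 bases, a loop CAGTGN and 5 bases able to pair with the first 5 (G with U allowed), read on the transcript strand. Of 21877 coding genes searched, 31 (0.142%) held a match in a 5′ UTR and 129 (0.59%) in a 3′ UTR, and 4 of the 10 genes held a match. The sequences below are from GENCODE M21 transcripts of GRCm38, written 5′ to 3′ as DNA, with the bulged C and the loop in capitals. Fth1 (chr19:9982732-9982760, plus strand), Ftl1 (chr7:45459779-45459807, minus strand) and Slc40a1 (chr1:45925465-45925493, minus strand) each held 1 in the 5′ UTR. Tfrc held 4 in its 3′ UTR on the plus strand, at chr16:32631219-32631247, chr16:32631598-32631626, chr16:32631663-32631691 and chr16:32631710-32631738, printed in that order.
Fth1: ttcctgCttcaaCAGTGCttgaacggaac
Ftl1: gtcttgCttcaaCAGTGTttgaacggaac
Slc40a1: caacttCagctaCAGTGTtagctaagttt
Tfrc site 1: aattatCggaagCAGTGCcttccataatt
Tfrc site 2: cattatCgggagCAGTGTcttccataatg
Tfrc site 3: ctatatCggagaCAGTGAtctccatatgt
Tfrc site 4: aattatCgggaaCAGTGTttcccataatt
A match is a description of these letters and not a measured binding site. A gene without a match may still hold such a hairpin, since all 5 pairs and the exact loop were required.

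Values are CPM (read counts of a gene relative to the library's TMM-scaled total), given for replicates 1, 2 and 3 in that order, and a gene is called where its Benjamini-Hochberg adjusted p over all tested genes was under 0.05 in edgeR's quasi-likelihood test. Library totals ran from 11245851 to 35568948 counts, and the lowest Slc40a1 count in a library was 4. Depth went with diet, since every obese library held more counts than any lean library of its population. For MHCII-low cells the largest lean total was 21530356 and the smallest obese total 30083259. These totals were 25914583 and 26648301 for CD11c-negative cells, and 20058521 and 20871699 for monocyte-derived cells. The part of depth in the diet changes was not tested. H2-Ab1, which encodes an MHCII chain, had means of 233 and 346 CPM in lean and obese MHCII-low macrophages against 1705 to 4112 CPM in the other groups, and Itgax, which encodes CD11c, at 587 CPM in CD11c-positive macrophages against 85.0 CPM in obese CD11c-negative ones. The summed level of 8 macrophage markers ran from 6492 to 10811 CPM over the macrophage libraries and from 2173 to 7440 CPM over the monocyte-derived ones. The lean monocyte-derived libraries were unlike each other: the macrophage marker sum was 7440 CPM in replicate 2 against 3001 and 2173 CPM in replicates 1 and 3, and the Ly6C-high monocyte marker sum 15135 CPM against 4458 and 4016 CPM. Replicates 1 and 3 in turn held more of 8 conventional dendritic cell markers, with sums of 939 and 661 CPM against 264 CPM in replicate 2, where obese monocyte-derived libraries had 294 to 640 CPM and macrophage libraries 25.0 to 61.4 CPM. Comparisons that use lean monocyte-derived cells are therefore given with and without replicate 2, and leaving it out keeps the libraries richer in dendritic cell markers. In bulk samples fewer cells of a type and less RNA per cell cannot be told apart.

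**Figure D1:**
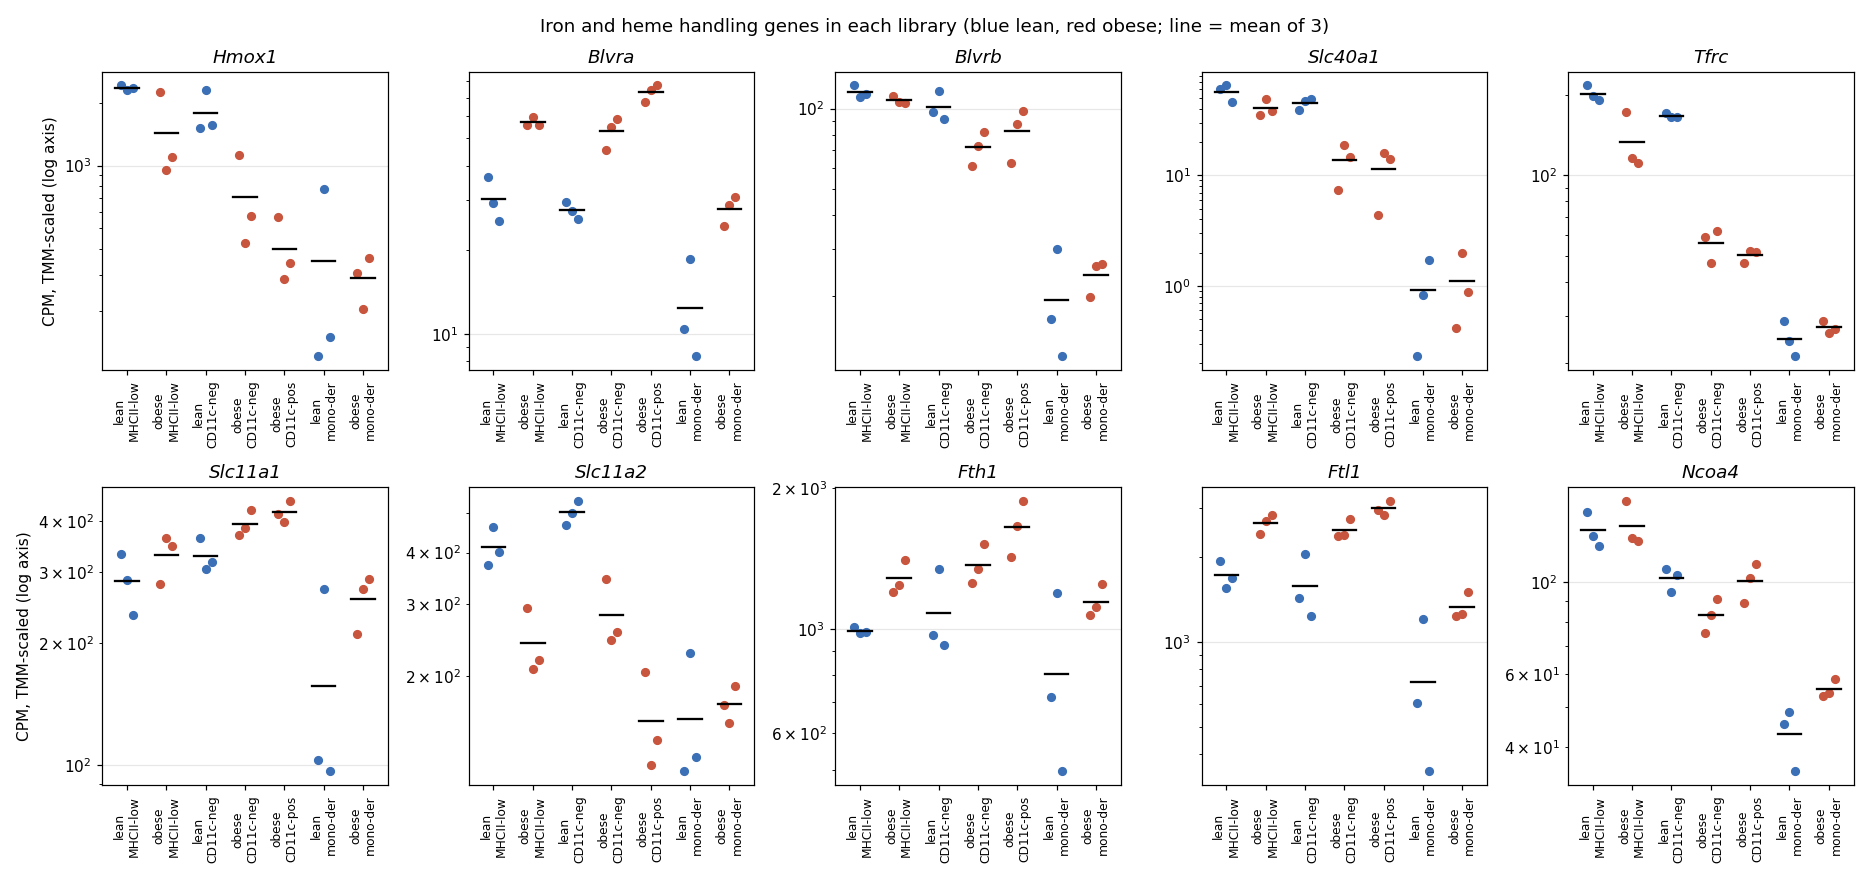
Each panel plots 1 gene, with CPM on a log axis against the 7 groups, 1 point per library (blue lean, red obese) and a line at the mean of 3. The means of Tfrc and Slc40a1 lie highest in lean macrophages, although obese MHCII-low libraries overlap lean CD11c-negative ones for both genes. Blvra lies higher in obese than in lean cells of each population, and lean monocyte-derived replicate 2 sits above its group for Hmox1, Slc11a1 and Ftl1.

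Diet was compared first in MHCII-low macrophages, where Blvra rose and Tfrc and Slc11a2 fell in obese mice. These 3 of 10 genes compare with 30.7% of all genes tested, and the median log2 change was -0.03 over the 10 genes and -0.07 over all genes tested, so the share called is that of genes in general. In CD11c-negative macrophages 4 of 10 were called, against 32.4% of genes tested, with medians of -0.40 and -0.10: Blvra rose, and Tfrc, Slc40a1 and Slc11a2 fell. In monocyte-derived cells 2 of 10 were called, against 17.2% of genes tested, with medians of 0.34 and -0.05: Blvra and Ftl1 rose. Without lean monocyte-derived replicate 2 that count was 7, all of them higher in obese cells, while the share over all genes tested also grew, to 38.4%, with 16.5% higher. Markers moved with diet in these cells too: 5 of 8 macrophage markers were called higher (sums of 2173 to 7440 CPM in lean and 3857 to 5303 CPM in obese libraries), 7 of 8 without replicate 2, and 4 of 8 fibroblast markers were called higher (201 to 308 CPM and 524 to 1547 CPM), 3 of 8 without it. Of the dendritic cell markers 2 of 8 were called lower, 4 of 8 without replicate 2. The part of these markers in the changes of Blvra, Ftl1 and the others was not tested.

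**Figure D2:**
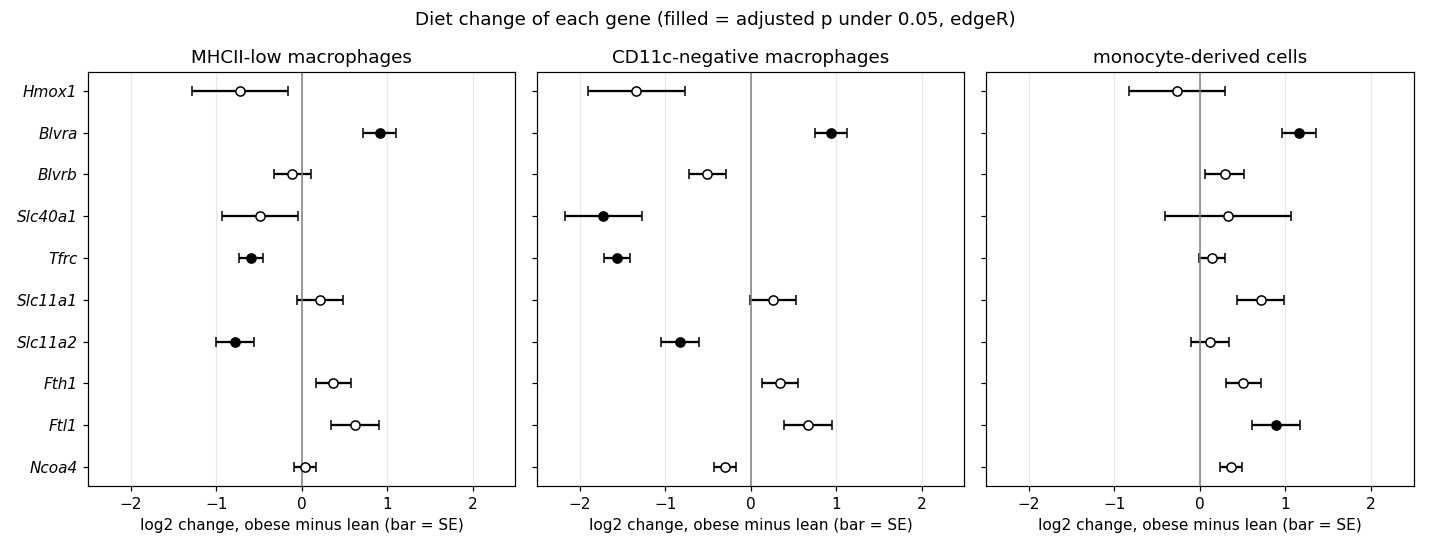
The log2 change (obese minus lean) of each gene is plotted with its SE for the MHCII-low, CD11c-negative and monocyte-derived populations, and filled points have an edgeR adjusted p under 0.05. Blvra is filled on the right in each panel, and Tfrc is filled on the left in both macrophage panels, at -0.60 and -1.57, and open in monocyte-derived cells.

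Heme breakdown was read from Hmox1, Blvra and Blvrb, which did not move together with diet. Blvra stood at 36.4, 29.3 and 25.3 CPM in lean and 55.7, 59.6 and 55.9 CPM in obese MHCII-low macrophages. The groups did not overlap, and the log2 change was 0.91 ± 0.19 (SE, edgeR adjusted p = 0.00169). In CD11c-negative macrophages Blvra stood at 29.7, 27.6 and 25.7 CPM in lean and 45.6, 54.8 and 58.7 CPM in obese libraries, again without overlap (log2 change 0.94 ± 0.19, adjusted p = 0.00107). In monocyte-derived cells it stood at 10.4, 18.5 and 8.32 CPM in lean and 24.4, 28.9 and 30.9 CPM in obese libraries. Every obese library was above every lean one (log2 change 1.16 ± 0.20, adjusted p = 0.000808), and without lean replicate 2 the log2 change was 1.62.

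Blvrb, which encodes the second biliverdin reductase and also reduces flavins, passed the test for diet in none of the 3 populations with all libraries in. It stood at 122, 111 and 113 CPM in lean and 112, 106 and 105 CPM in obese MHCII-low macrophages, which overlapped (log2 change -0.11 ± 0.22, adjusted p = 0.743). In CD11c-negative macrophages it stood at 97.2, 117 and 91.8 CPM in lean and 60.9, 72.3 and 81.9 CPM in obese libraries (log2 change -0.51 ± 0.22, adjusted p = 0.0864). In monocyte-derived cells it stood at 16.4, 29.9 and 11.9 CPM in lean and 19.8, 25.9 and 26.3 CPM in obese libraries, where lean replicate 2 lay above each obese one (log2 change 0.29 ± 0.23, adjusted p = 0.391). Without that library Blvrb was called higher in obese cells (log2 change 0.79 ± 0.19, adjusted p = 0.00336). The ratio of Blvrb to Blvra in a library was 3.88 ± 0.570 in lean and 1.88 ± 0.116 in obese MHCII-low macrophages (SD, n = 3). It was 3.69 ± 0.485 and 1.35 ± 0.0390 in CD11c-negative macrophages, and 1.54 ± 0.0956 and 0.853 ± 0.0420 in monocyte-derived cells. The lean and obese ratios did not overlap in any of the 3 populations. With 3 libraries against 3 an exact permutation test cannot go below p = 0.10, so the ratios are given as a description.

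**Figure D3:**
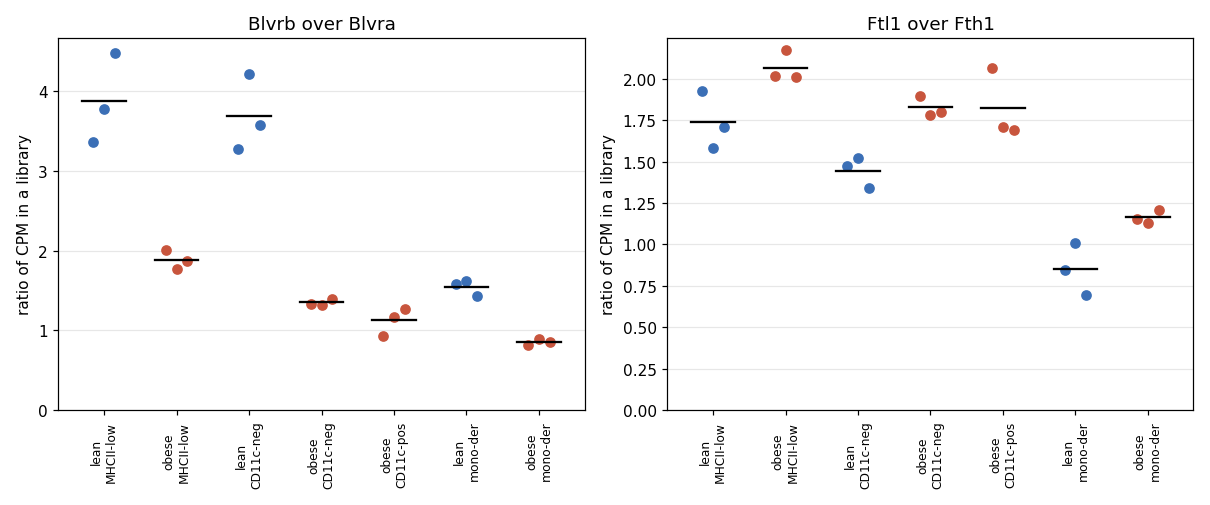
The ratio of Blvrb to Blvra and of Ftl1 to Fth1 within each library is plotted for the 7 groups, with 1 point per library and a line at the mean of 3. The Blvrb to Blvra ratio is lower in obese than in lean libraries of each population, and the Ftl1 to Fth1 ratio is near 1 in monocyte-derived cells and higher in macrophages.

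Hmox1 was the most variable of the 3. It stood at 2426, 2317 and 2361 CPM in lean and 2253, 949 and 1096 CPM in obese MHCII-low macrophages. In CD11c-negative macrophages it stood at 1515, 2294 and 1565 CPM in lean and 1129, 426 and 575 CPM in obese libraries. Obese libraries lay below lean ones in both populations, but neither change passed the test (log2 -0.72 ± 0.56, adjusted p = 0.341, and -1.34 ± 0.57, adjusted p = 0.0831). In lean monocyte-derived cells Hmox1 stood at 122, 776 and 151 CPM, so replicate 2 was far above the others, and in obese ones at 306, 205 and 360 CPM. The log2 change was -0.27 ± 0.56 with that library and 1.14 without it, and neither was called (adjusted p = 0.770 and 0.0637).

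Export was read from Slc40a1, the only known iron exporter of mammalian cells. It stood at 39.3, 47.4 and 49.2 CPM in lean and 7.42, 19.0 and 14.5 CPM in obese CD11c-negative macrophages. Every obese library was below every lean one, 3.32-fold lower in fitted level (log2 change -1.73 ± 0.45, adjusted p = 0.00848). In MHCII-low macrophages it stood at 60.0, 65.2 and 46.6 CPM in lean and 34.9, 49.5 and 37.9 CPM in obese libraries, which overlapped (log2 change -0.49 ± 0.44, adjusted p = 0.409). In monocyte-derived cells its level was between 0.231 and 1.99 CPM in each library of both diets, at 4 to 43 counts, too few to tell diets apart (log2 change 0.33 ± 0.74, adjusted p = 0.787, and 0.35 and 0.797 without lean replicate 2).

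Import was read from Tfrc RNA, which fell with obesity in both macrophage populations and was not called in monocyte-derived cells. Receptor protein and iron uptake were not measured. Tfrc stood at 171, 165 and 165 CPM in lean and 59.1, 47.3 and 62.1 CPM in obese CD11c-negative macrophages. Lean libraries were close to each other and far above the obese ones, which were 2.98-fold lower in fitted level (log2 change -1.57 ± 0.15, adjusted p = 4.01e-07). In MHCII-low macrophages Tfrc stood at 217, 198 and 191 CPM in lean and 172, 116 and 111 CPM in obese libraries, a smaller step without overlap (log2 change -0.60 ± 0.14, adjusted p = 0.00389). In monocyte-derived cells it stood at 28.5, 24.2 and 21.2 CPM in lean and 28.6, 25.9 and 26.9 CPM in obese libraries, which overlapped (log2 change 0.14 ± 0.15, adjusted p = 0.546, and 0.16 and 0.451 without lean replicate 2).

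The RNA of the divalent metal transporters differed from each other. Whether NRAMP1 works as a pump in these C57BL/6 cells was not measured. Slc11a2 stood at 374, 462 and 401 CPM in lean and 294, 209 and 219 CPM in obese MHCII-low macrophages (log2 change -0.78 ± 0.22, adjusted p = 0.0132). In CD11c-negative macrophages it stood at 467, 501 and 536 CPM in lean and 345, 245 and 256 CPM in obese libraries (log2 change -0.83 ± 0.22, adjusted p = 0.00787). The diets did not overlap in either population. The call was lost in MHCII-low macrophages without lean replicate 2 or obese replicate 2 or 3 (adjusted p = 0.0748 to 0.1004), and in CD11c-negative ones without obese replicate 2 or 3 (adjusted p = 0.0752 and 0.0681). Gm5475, an annotated gene on the other strand that overlaps Slc11a2 exons, fell from 29.5 to 15.03 CPM and from 35.8 to 17.2 CPM in mean level in the same comparisons, and the strand setting of the counting was not given in the sources used here. In monocyte-derived cells Slc11a2 stood at 117, 227 and 127 CPM in lean and 170, 154 and 189 CPM in obese libraries, with lean replicate 2 the highest of the 6 (log2 change 0.12 ± 0.22, adjusted p = 0.739). Without it the change was called, upward and so opposite to the macrophages (log2 0.53 ± 0.20, adjusted p = 0.0397). It was called in this 1 of 13 alternatives alone, and its sign changed in 2 of them (lowest log2 -0.03). Slc11a1, the phagosome transporter, was called for diet in no population with all libraries in, with log2 changes of 0.21 ± 0.27, 0.26 ± 0.27 and 0.71 ± 0.27 in MHCII-low, CD11c-negative and monocyte-derived cells (adjusted p = 0.564, 0.473 and 0.0741). In lean monocyte-derived cells it stood at 103, 271 and 96.6 CPM, and in obese ones at 211, 273 and 288 CPM, so lean replicate 2 alone reached the obese levels. Without that library the log2 change was 1.41 and was called (adjusted p = 1.76e-06).

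Storage genes lay higher in obese cells, mostly without passing the test. Ftl1 stood at 1948, 1554 and 1685 CPM in lean and 2430, 2699 and 2831 CPM in obese MHCII-low macrophages (log2 change 0.62 ± 0.28, adjusted p = 0.101). In CD11c-negative macrophages it stood at 1435, 2055 and 1240 CPM in lean and 2380, 2395 and 2738 CPM in obese libraries (log2 change 0.67 ± 0.28, adjusted p = 0.0753). The diets did not overlap in either population, yet neither change was called. In monocyte-derived cells Ftl1 rose from 607, 1204 and 346 CPM to 1234, 1262 and 1512 CPM (log2 change 0.89 ± 0.28, adjusted p = 0.0367). The highest lean value, from replicate 2, lay just below the lowest obese one, and the log2 change without it was 1.53. That call was lost without lean replicate 1 or 3, or obese replicate 1 or 3 (adjusted p = 0.0515 to 0.125).

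Fth1 stood at 1011, 982 and 985 CPM in lean and 1203, 1242 and 1407 CPM in obese MHCII-low macrophages, where the diets did not overlap (log2 change 0.37 ± 0.21, adjusted p = 0.186). In CD11c-negative macrophages the diets overlapped (log2 change 0.34 ± 0.21, adjusted p = 0.220). In monocyte-derived cells it stood at 718, 1197 and 497 CPM in lean and 1071, 1115 and 1251 CPM in obese libraries, and the overlap came from lean replicate 2 (log2 change 0.51 ± 0.21, adjusted p = 0.0964). Without that library Fth1 was called higher in obese cells (log2 change 0.96 ± 0.17, adjusted p = 0.000314). The ratio of Ftl1 to Fth1 was 1.74 ± 0.174 in lean and 2.07 ± 0.0913 in obese MHCII-low macrophages, and 1.45 ± 0.0941 and 1.83 ± 0.0609 in CD11c-negative ones (SD, n = 3). In monocyte-derived cells it was 0.850 ± 0.155 and 1.16 ± 0.0395. Lean and obese ratios did not overlap in any of these populations. Ferritin counts are less certain than the others, because near-identical copies can share their reads: Ftl1-ps1 stood at 113 to 208 CPM in mean over the macrophage groups and Ftl2-ps at 36.9 to 70.9 CPM, and Gm10252 and Gm22133 overlap Ftl1 exons.

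Ncoa4, which releases what ferritin stores, passed no diet test with all libraries in. It stood at 148, 129 and 122 CPM in lean and 157, 128 and 125 CPM in obese MHCII-low macrophages, almost the same levels (log2 change 0.04 ± 0.13, adjusted p = 0.844). In CD11c-negative macrophages it stood at 108, 94.8 and 104 CPM in lean and 75.2, 83.6 and 91.0 CPM in obese libraries, lower without overlap (log2 change -0.30 ± 0.13, adjusted p = 0.0804). In monocyte-derived cells it stood at 45.5, 48.6 and 35.0 CPM in lean and 53.3, 54.1 and 58.4 CPM in obese libraries, higher without overlap (log2 change 0.36 ± 0.13, adjusted p = 0.0609). Without lean replicate 2 that change was called (log2 0.50, adjusted p = 0.00931), as it was without obese replicate 1 or 2 (adjusted p = 0.0413 and 0.0291).

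Other cell markers moved with diet beside these genes. The 8 markers of resident adipose macrophages summed to 10657 to 12088 CPM in lean and 5616 to 9456 CPM in obese MHCII-low macrophages, with 2 of 8 called lower and none higher. In CD11c-negative macrophages the sum was 7832 to 8394 CPM in lean and 2758 to 3373 CPM in obese libraries, with 7 of 8 called lower. The 14 dividing-cell genes went the other way, from 320 to 397 CPM up to 732 to 763 CPM in MHCII-low and from 388 to 495 CPM up to 728 to 854 CPM in CD11c-negative macrophages, with 13 and 12 called higher. Markers of other cells fell: adipocyte sums went from 38.2 to 48.2 CPM down to 7.45 to 10.01 CPM in MHCII-low and from 48.5 to 60.7 CPM down to 10.8 to 12.6 CPM in CD11c-negative macrophages (6 and 5 of 8 called lower). T and NK cell sums went from 30.5 to 55.0 CPM down to 6.35 to 12.1 CPM and from 28.8 to 34.3 CPM down to 6.27 to 8.63 CPM (7 and 4 of 8 called lower). Of 8 fibroblast markers 3 were called higher in each macrophage population, and so were 3 of 8 macrophage markers. Of the dendritic cell markers 2 and 3 of 8 were called lower, and of the Ly6C-high monocyte markers 4 and 2 of 8. Receptors of smell and pheromones, genes of sensory neurons that are mostly silent in other cells, summed to 152 to 239 CPM in lean and 32.8 to 53.2 CPM in obese MHCII-low macrophages, 69.7 to 135 and 27.7 to 32.95 CPM in CD11c-negative ones, and 314 to 1172 and 80.5 to 174 CPM in monocyte-derived cells. The part of all these in the diet changes of the 10 genes was not tested. The summed level of 8 red-cell genes, hemoglobin chains included, was 1.29 to 12.2 CPM over all 21 libraries with 1 and 3 of the 7 tested called lower in obese MHCII-low and CD11c-negative macrophages. Its part was not tested either.

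Whether the diet change itself differed between populations was tested by interaction terms. Between CD11c-negative and MHCII-low macrophages none of the 10 genes and none of the 22935 tested (0%) was called by edgeR, with 1 of 10 and 634 genes at an unadjusted p under 0.05 and 1 of 10 and 8 genes called by DESeq2. The gene was Tfrc in each case, with a difference of -0.97 ± 0.20 on the log2 scale (edgeR adjusted p = 0.468, DESeq2 -0.94 and 0.0254). Between monocyte-derived cells and CD11c-negative macrophages 2 of 10 were called, against 6.36% of genes tested. They were Tfrc (1.71 ± 0.21, adjusted p = 7.04e-05) and Ncoa4 (0.65 ± 0.18, adjusted p = 0.0359), both of which lay lower with obesity in the macrophages and not in the monocyte-derived cells. Between monocyte-derived cells and MHCII-low macrophages 1 of 10 was called, against 4.33% of genes tested: Tfrc (0.74 ± 0.20, adjusted p = 0.0436). Without lean monocyte-derived replicate 2 the counts were 8 and 6 of 10 in these comparisons, against 12.1% and 9.63% of genes tested. Slc40a1 and Fth1 remained uncalled in the first, and these genes, Hmox1 and Ncoa4 in the second, while Tfrc had differences of 1.72 and 0.77 (adjusted p = 3.93e-05 and 0.0276). Markers differed there too without that library, in the same order of comparisons. Called higher were 4 and 4 of 8 macrophage, 7 and 0 of 8 resident and 1 and 4 of 8 Ly6C-high monocyte markers, with 0 lower. Of 14 dividing-cell genes 11 and 10 were called lower, and 1 higher in each. The part of these markers was not tested. Slc40a1, whose diet change was called in CD11c-negative and not in MHCII-low macrophages, had a difference of -1.24 ± 0.62 between them that was not called (adjusted p = 1.00).

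Among obese macrophages, CD11c-negative and MHCII-low cells differed in Tfrc and Ncoa4. These 2 of 10 compare with 3.05% of genes tested, and both were lower in CD11c-negative cells. Tfrc stood at 59.1, 47.3 and 62.1 CPM against 172, 116 and 111 CPM (log2 difference -1.24 ± 0.14, adjusted p = 2.78e-05). Ncoa4 stood at 75.2, 83.6 and 91.0 CPM against 157, 128 and 125 CPM (log2 difference -0.72 ± 0.13, adjusted p = 0.00221). Neither overlapped, and the Ncoa4 call was lost without replicate 1 of either group (adjusted p = 0.0585 and 0.0730). Slc40a1 lay 2.99-fold lower in fitted level without overlap and was not called (log2 difference -1.58 ± 0.45, adjusted p = 0.0755). Obese libraries of equal replicate number deviated together, and with the number as a block 4 of 10 were called, against 5.81% of genes tested: Slc40a1 (log2 -1.70 ± 0.29, adjusted p = 0.00443) and Blvrb (-0.60 ± 0.17, adjusted p = 0.0422) joined Tfrc and Ncoa4. The resident marker sum was also lower in CD11c-negative cells, with 7 of 8 markers called, and its part in these differences was not tested. In lean mice the same populations had no called gene of the 10, against 1.3% of genes tested. At an unadjusted p under 0.05 there was 1 of 10 (Ncoa4), beside 2336 of the 22935 genes tested. Ncoa4 had an edgeR log2 difference of -0.38 ± 0.13 (adjusted p = 0.208) and was called by DESeq2 (-0.42, adjusted p = 0.0292).

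CD11c-positive macrophages differed from CD11c-negative ones of obese mice in Slc11a2 alone, 1 of 10 against 3.49% of genes tested. It stood at 205, 122 and 140 CPM against 345, 245 and 256 CPM, lower without overlap (log2 difference -0.86 ± 0.22, adjusted p = 0.0360). The call was lost without CD11c-negative replicate 1, 2 or 3, or CD11c-positive replicate 2 or 3 (adjusted p = 0.0889 to 0.354). With replicate number as a block Slc11a2 was again the 1 gene called of the 10 (log2 -0.88 ± 0.16, adjusted p = 0.00326), against 10.3% of genes tested. Of 8 resident adipose macrophage markers 5 were called lower in CD11c-positive cells, with sums of 1391 to 1464 CPM against 2758 to 3373 CPM, and of 14 dividing-cell genes 8 were called higher, with sums of 982 to 1161 CPM against 728 to 854 CPM. Their part was not tested. Blvra was highest here of all groups, at 67.3, 74.7 and 77.4 CPM, and lay above the CD11c-negative libraries without being called (log2 difference 0.46 ± 0.19, adjusted p = 0.181). Tfrc and Slc40a1 overlapped between both populations, with log2 differences of -0.15 ± 0.14 and -0.26 ± 0.45 (adjusted p = 0.607 and 0.812).

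Monocyte-derived cells held less of most of these transcripts than macrophages. Against obese CD11c-positive macrophages 7 of 10 were lower in obese monocyte-derived cells, where 38.7% of genes tested were called and 19.4% were called lower. The exceptions were Hmox1 (log2 difference -0.45 ± 0.56), Slc11a2 (0.14 ± 0.22) and Fth1 (-0.53 ± 0.21), with adjusted p = 0.550, 0.649 and 0.0520. Fth1 lay at the threshold and was called lower under 6 of 14 alternatives, among them the fit with replicate number as a block (log2 -0.53 ± 0.13, adjusted p = 0.00394). Slc40a1 stood at 0.419, 1.99 and 0.885 CPM against 4.36, 16.0 and 13.9 CPM, the largest difference of the 10 at log2 -3.41 ± 0.56 (adjusted p = 0.000161). Blvrb stood at 19.8, 25.9 and 26.3 CPM against 62.7, 87.5 and 98.4 CPM (log2 difference -1.79 ± 0.23, adjusted p = 6.85e-06). The Slc11a1 call (log2 -0.71 ± 0.27, adjusted p = 0.0430) was lost whichever replicate of either group was left out (adjusted p = 0.0760 to 0.185), and with the block (log2 -0.72 ± 0.28, adjusted p = 0.0544). In this comparison 7 of 8 macrophage markers were called lower and 8 of 8 Ly6C-high monocyte markers higher. So were 7 of 8 conventional dendritic cell markers, with sums of 294 to 640 CPM against 28.8 to 32.2 CPM (median log2 difference 2.83), and the part of these markers was not tested.

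In lean mice 9 of 10 were lower in monocyte-derived cells than in CD11c-negative macrophages, where 43.7% of genes tested were called and 20.1% were called lower, and without monocyte-derived replicate 2 all 10 were, against 50.1% called and 20.2% called lower. Slc40a1 stood at 0.231, 0.821 and 1.72 CPM against 39.3, 47.4 and 49.2 CPM, 53.1-fold lower in fitted level (log2 difference -5.73 ± 0.62, adjusted p = 1.31e-06, and -5.73 without replicate 2). Tfrc stood at 28.5, 24.2 and 21.2 CPM against 171, 165 and 165 CPM (log2 difference -2.76 ± 0.15, adjusted p = 3.59e-11, and -2.76 without replicate 2). Hmox1 had a log2 difference of -2.36 ± 0.59 (adjusted p = 0.00426) and -3.74 without replicate 2. Fth1 was the exception with all libraries (log2 difference -0.43 ± 0.21, adjusted p = 0.107) and was called without replicate 2 (log2 -0.85, adjusted p = 0.000304). Macrophage markers were lower here as well, with 6 of 8 called, or 8 of 8 without replicate 2. Conventional dendritic cell markers were higher, with 7 of 8 called with and without it and sums of 264 to 939 CPM against 51.0 to 61.4 CPM, while 3 of 8 Ly6C-high monocyte markers were called higher. Their part was not tested.

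The order of the 7 group means was set beside tests of neighbouring groups. For Tfrc it ran from 202 CPM in lean MHCII-low macrophages through 167, 133, 56.2, 50.5 and 27.1 CPM in lean CD11c-negative, obese MHCII-low, obese CD11c-negative, obese CD11c-positive and obese monocyte-derived cells to 24.6 CPM in lean monocyte-derived cells. Neighbours differed between obese MHCII-low and obese CD11c-negative macrophages (adjusted p = 2.78e-05) and between CD11c-positive macrophages and obese monocyte-derived cells (adjusted p = 6.28e-05). The other neighbouring pairs were not called, although lean MHCII-low and lean CD11c-negative libraries did not overlap (adjusted p = 0.547). Slc40a1 had the same order of groups, at 57.3, 45.3, 40.8, 13.6, 11.4, 1.10 and 0.922 CPM, and its only neighbours called were CD11c-positive macrophages and obese monocyte-derived cells (adjusted p = 0.000161). Hmox1 ran from 2368 CPM in lean MHCII-low macrophages to 290 CPM in obese monocyte-derived cells, 8.17-fold, with no neighbouring pair called. Blvra began with CD11c-positive macrophages at 73.1 CPM and ended with lean monocyte-derived cells at 12.4 CPM, and its obese macrophage groups stood above the lean ones, with a called step between obese CD11c-negative and lean MHCII-low macrophages (adjusted p = 0.00240). Ftl1, Fth1 and Slc11a1 were also highest in mean in CD11c-positive macrophages, at 2993, 1657 and 421 CPM, while Slc11a2 was lowest there at 155 CPM. None of these genes was called between CD11c-positive macrophages and the neighbouring group (edgeR adjusted p = 0.739, 0.521, 0.896 and 0.949). Nor was Blvra (adjusted p = 0.224).

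Per kilobase of merged exons the ranking of the genes themselves changed between groups. In lean MHCII-low macrophages Hmox1 led at 1352 CPM per kb, followed by Ftl1 at 1290 and Fth1 at 286 CPM per kb, and Slc40a1 was last at 6.36 CPM per kb. In CD11c-positive macrophages Ftl1 led at 2233 CPM per kb, followed by Fth1 at 478 and Hmox1 at 227 CPM per kb. Per kilobase of the principal transcript Ftl1 (1786) stood above Hmox1 (1509) in lean MHCII-low macrophages too, so the order of these genes there depends on the length used.

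In the obese libraries several of the genes varied with replicate number across populations, a pattern picked out after the values were seen and given without a test. Replicate 1 had the highest Hmox1 in the 3 obese macrophage populations, at 2253, 1129 and 566 CPM in MHCII-low, CD11c-negative and CD11c-positive cells against 286 to 1096 CPM in replicates 2 and 3. It also had their highest Slc11a2, at 294, 345 and 205 CPM, and the lowest Slc40a1, at 34.9, 7.42 and 4.36 CPM. In monocyte-derived cells replicate 1 again had the lowest Slc40a1, 0.419 CPM, but neither the highest Hmox1 nor the highest Slc11a2. The resident macrophage marker sum of replicate 1 was the highest in MHCII-low and CD11c-negative macrophages, at 9456 and 3373 CPM, and the lowest in CD11c-positive ones, at 1391 CPM, and its part was not tested.

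**Figure D4:**
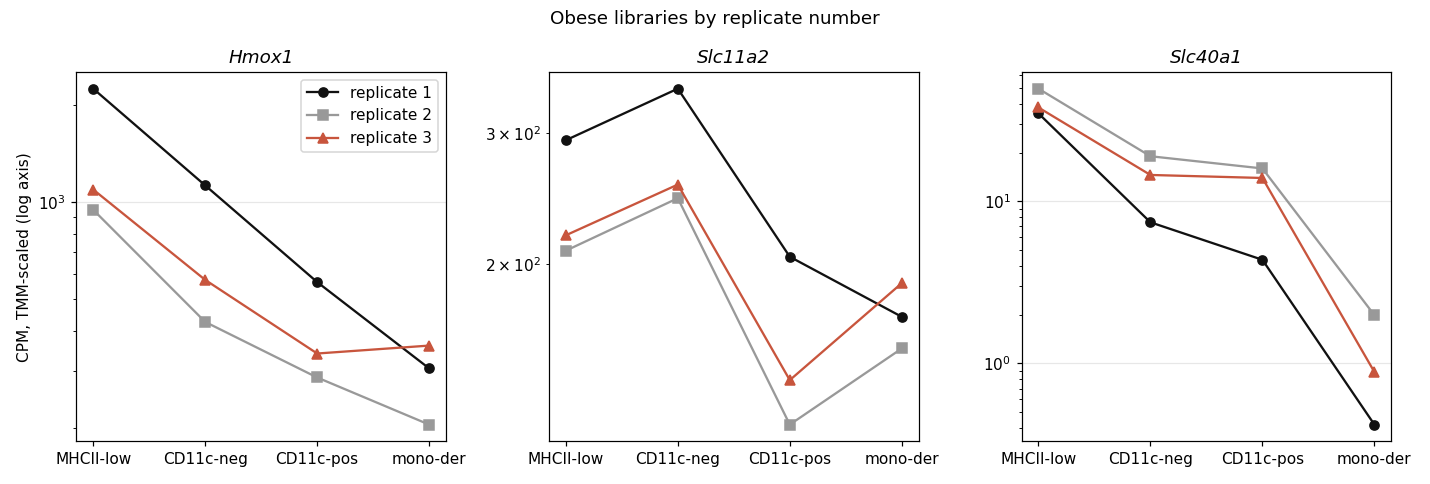
CPM on a log axis of Hmox1, Slc11a2 and Slc40a1 is plotted for the 4 obese populations, with a line joining libraries of the same replicate number. Replicate 1 lies highest for Hmox1 and Slc11a2 in the 3 macrophage populations and lowest for Slc40a1 in each of the 4.

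The wider iron and heme pathway was read from 7 lists, whose counts stand beside all genes tested: 30.7%, 32.4% and 17.2% were called in MHCII-low, CD11c-negative and monocyte-derived cells, with 16.8%, 16.8% and 7.44% higher and 13.8%, 15.6% and 9.76% lower in obese mice. Without lean monocyte-derived replicate 2 the monocyte-derived shares were 38.4%, 16.5% and 21.9%. Of 11 genes of heme and hemoglobin uptake and transport, 4 rose and 2 fell with obesity in MHCII-low macrophages, 4 rose and 3 fell in CD11c-negative ones, and 2 rose and 1 fell in monocyte-derived cells (5 and 1 without lean replicate 2). Cd163, the hemoglobin-haptoglobin receptor and also a resident marker above, fell in each, with log2 changes of -1.09 ± 0.20, -2.72 ± 0.21 and -1.26 ± 0.20 (adjusted p = 0.000460, 3.99e-08 and 0.000349, the last -1.35 without lean replicate 2). Lrp1, a large endocytic receptor that takes up hemopexin-bound heme among many ligands, rose in each, with means going from 1240 to 3083, from 1545 to 3816 and from 1667 to 2994 CPM (adjusted p = 4.58e-05, 4.16e-05 and 0.00574). Slc48a1, which moves heme out of the phagolysosome, rose from 53.3 to 115 CPM and from 62.2 to 111 CPM in the macrophages (adjusted p = 0.00373 and 0.0175) and had a log2 change of 0.25 in monocyte-derived cells (adjusted p = 0.518), which was 0.88 and called without lean replicate 2 (adjusted p = 0.000324). Lrp1 had a log2 change of 1.12 there without that library (adjusted p = 0.000120).

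Of 10 heme synthesis genes 5 rose and none fell in each macrophage population, where 16.8% of all genes rose, and 2 rose and 1 fell in monocyte-derived cells (4 and 2 without lean replicate 2). Slc25a39, a mitochondrial carrier, rose in all 3 by 0.93 ± 0.17, 0.91 ± 0.17 and 0.53 ± 0.17 on the log2 scale (adjusted p = 0.000572, 0.000536 and 0.0422, the last 0.79 without lean replicate 2). Fech, which inserts iron into protoporphyrin, rose in MHCII-low macrophages (0.52 ± 0.17, adjusted p = 0.0246), and Alas1, the first enzyme of the path, rose in monocyte-derived cells (0.74 ± 0.16, adjusted p = 0.00451, and 0.93 without lean replicate 2). Of 13 genes of mitochondrial iron and iron-sulfur clusters, 7 rose and none fell in MHCII-low macrophages, 10 rose and 2 fell in CD11c-negative ones, and 3 rose and none fell in monocyte-derived cells (6 and none without lean replicate 2), beside the 30.7%, 32.4% and 17.2% of all genes called. The iron carriers of the mitochondrial membrane diverged in CD11c-negative macrophages, where Slc25a28 (mitoferrin 2) rose from 45.0 to 83.1 CPM and Slc25a37 (mitoferrin 1) fell from 86.0 to 59.5 CPM (adjusted p = 0.000225 and 0.00408). The median log2 change of the heme synthesis list was 0.47, 0.47 and 0.24 in the 3 populations, beside -0.07, -0.10 and -0.05 over all genes tested.

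Of 12 tested genes of the transferrin cycle and other iron import, 2 rose and 1 fell in each macrophage population, no larger a share than the 30.7% and 32.4% of all genes, and 2 rose and 2 fell in monocyte-derived cells (2 and 3 of 13 tested without lean replicate 2). Steap3, the endosomal reductase that readies transferrin iron for DMT1, rose in each population, by 0.87 ± 0.29, 1.10 ± 0.29 and 0.86 ± 0.29 on the log2 scale (adjusted p = 0.0283, 0.00725 and 0.0493, the last 1.69 without lean replicate 2), whereas Tfrc and Slc11a2 fell in the macrophages. Hfe, which binds the transferrin receptor, rose in both macrophage populations (0.47 ± 0.11 and 0.31 ± 0.11, adjusted p = 0.00413 and 0.0376). Of 6 tested iron chaperones, storage and export partners, 1 fell and none rose in each population, a smaller share than that of all genes in the macrophages. It was Cp, ceruloplasmin, the ferroxidase that works with ferroportin: its mean went from 117 to 66.8 CPM, from 82.7 to 29.1 CPM and from 13.8 to 7.95 CPM (adjusted p = 0.0175, 0.000177 and 0.0405). Without lean replicate 2 the monocyte-derived call of Cp was lost (log2 -0.73, adjusted p = 0.0703), and 3 of the 6 rose there.

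Of 7 tested genes of iron sensing and the hepcidin axis, 2 rose and none fell in MHCII-low macrophages, 1 rose and 1 fell in CD11c-negative ones, and 1 rose in monocyte-derived cells (4 of 8 tested, with none falling, without lean replicate 2), shares near those of all genes with every library in. Aco1, which encodes an iron regulatory protein, rose in each, by 0.61 ± 0.20, 0.64 ± 0.20 and 0.64 ± 0.21 on the log2 scale (adjusted p = 0.0278, 0.0208 and 0.0374, the last 1.16 without lean replicate 2). Ireb2, the other iron regulatory protein, rose in MHCII-low macrophages (0.44 ± 0.10, adjusted p = 0.00325). Spic, a transcription factor of red pulp macrophages that handle heme, fell in CD11c-negative macrophages from 31.3, 57.3 and 46.9 CPM to 19.3, 10.5 and 10.4 CPM (log2 change -1.75 ± 0.37, adjusted p = 0.00168). Of 13 NRF2 and BACH1 regulators and targets, 3 rose and none fell, 3 rose and 2 fell, and 1 rose and none fell in the 3 populations. These counts are near or below the shares of all genes called (30.7%, 32.4% and 17.2%), and without lean replicate 2 the last became 8 risen and none fallen. Bach1, the heme-sensing repressor of Hmox1, fell in CD11c-negative macrophages from a mean of 1195 to 775 CPM (log2 change -0.63 ± 0.20, adjusted p = 0.0239), where Hmox1 itself lay lower without passing the test.

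**Figure D5:**
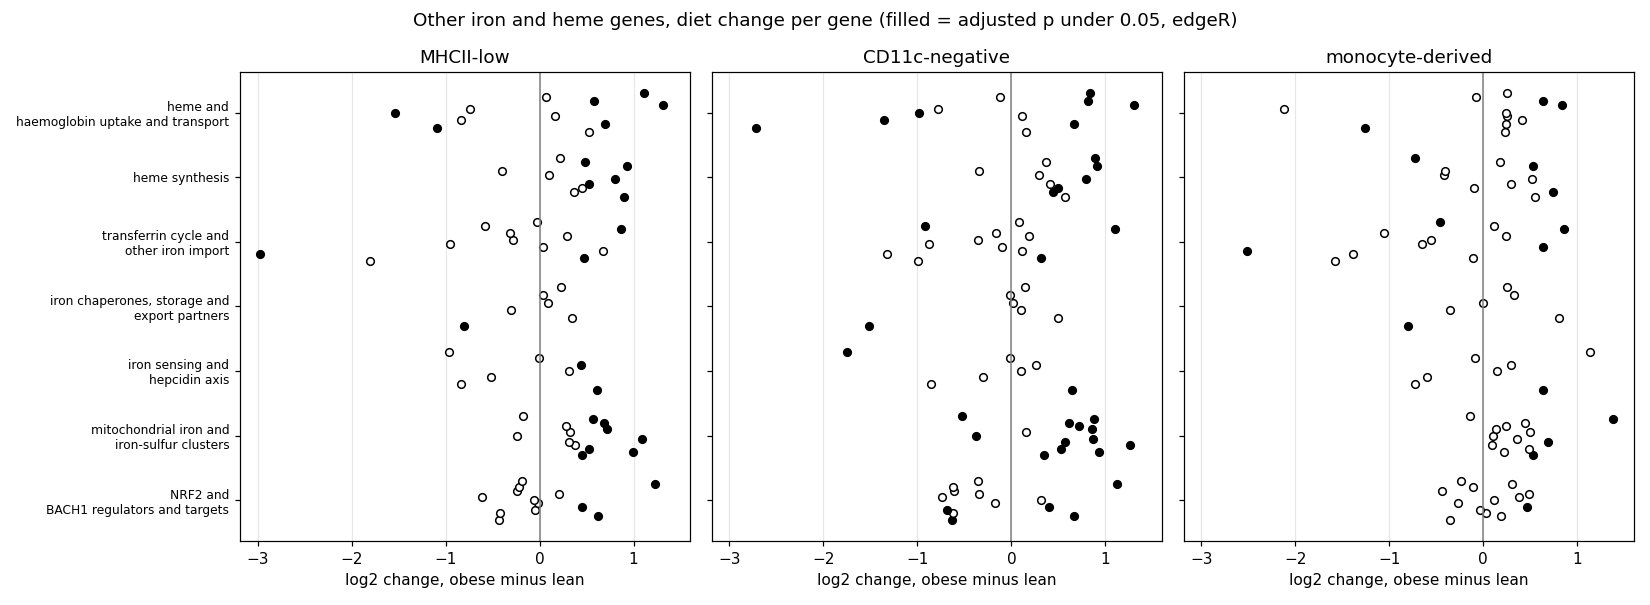
The log2 change (obese minus lean) of each tested gene of the 7 iron and heme lists is plotted for the MHCII-low, CD11c-negative and monocyte-derived populations, 1 point per gene, filled where the edgeR adjusted p is under 0.05. Filled points of the heme synthesis list lie to the right in both macrophage panels, and the only filled point of the chaperone, storage and export list lies to the left in each panel.

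The genes whose log2 CPM followed each of the 10 most closely over the 21 libraries were ranked by Pearson's r among 7693 genes, as a description, since libraries share groups, depth and preparation. Slc40a1 was closest to Gas6 (r = 0.983), itself among the resident macrophage markers, and Blvra to Tlr8 (0.988), Cipc (0.987) and the macrophage gene Cd68 (0.987). Tfrc was close to Eps15 (0.985), and Hmox1 was closest to Anapc7 (0.980) and Tollip (0.977), and Blvrb to Gstm1 (0.988). Ftl1 was closest to its copies Ftl2-ps (0.990) and Ftl1-ps1 (0.983) and then to Hexa (0.978). Ncoa4 was closest to Sord (0.980), Slc11a2 to Impact (0.972), Slc11a1 to Pla2g7 (0.961) and Fth1 to Utp3 (0.961). Without the lean monocyte-derived libraries r for Slc11a1 and Pla2g7 was 0.871 over 18 libraries, and for the Hmox1 and Anapc7 pair 0.982.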

How the data were processed

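RNA of sorted adipose myeloid cells was measured in 21 libraries. The deposited values are raw counts of reads per gene, and the submitters' processing notes name bcl2fastq, STAR 2.6.0a, Trim Galore 0.4.5, Subread 1.4.6-p5, featureCounts and the build GRCm38. Which strand setting was used was not given in the sources used here. Exons of Slc48a1, Alas1, Slc25a37, Cp and Flvcr1, like those of Slc11a2, are overlapped by annotated genes on the other strand. Those of Trf are overlapped by a gene on the same strand. The part of these overlaps in the values was not tested. Of 54532 gene IDs, 53315 matched GENCODE M21 with their version and 54495 without it. From the counts, edgeR 4.0.16 in R 4.3.3 was used with filterByExpr, TMM and a robust quasi-likelihood fit to the 7 group means (14 residual degrees of freedom, common dispersion 0.0502), with 2-sided tests and Benjamini-Hochberg adjustment over 22935 genes. The spread of a gene is shared over all groups, so SEs with lean monocyte-derived cells may be too small. Marker sums are CPM of library totals without TMM. Printed SEs come from the fit to the 7 group means and carry the spread between libraries. Those beside values without a library or with a replicate block come from these other fits. The block takes out spread shared by replicate number. The code was also run on simulated counts, which bears on no result given here. Replicate numbers were checked by the correlation of deviations from group means: in the 3 obese comparisons every equal-number pair was over 0.1 (r = 0.327 to 0.679, 0.638 to 0.771 and 0.383 to 0.486), so values with the number as a block within diet stand beside those results where a call changed. Lean description numbers met this in part. The 2 equal-number pairs of MHCII-low and CD11c-negative libraries were over 0.1 (r = 0.41 and 0.546), but not every library there had a partner. Pairs with lean monocyte-derived cells were not all over 0.1 (lowest r = 0.0527 and 0.0885). The labels do not say what the numbers mark. The members and lists were chosen with earlier results of these data known. From each list the text names up to 2 called rises and 2 called falls per comparison by size, if the higher group averaged 10 CPM or more. Alternatives included DESeq2 1.42.0, other scaling, no filter, replicate blocks and leaving out each library.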

Additional observations from a re-analysis of the deposited data

Results flagged for a closer look

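The change of Tfrc with obesity differed between monocyte-derived cells and macrophages by the interaction test of edgeR. The difference was 1.71 on the log2 scale against CD11c-negative macrophages, called under 20 of 20 alternatives (adjusted p = 6.26e-12 to 0.00107), and 0.74 against MHCII-low macrophages, called under 14 of 20 (adjusted p = 0.00173 to 0.1002). Ncoa4 differed in the same way between monocyte-derived cells and CD11c-negative macrophages, by 0.65 on the log2 scale, called under 13 of 20 alternatives (adjusted p = 0.00674 to 0.0868). For Tfrc the macrophage side fell and the monocyte-derived side had a log2 change of 0.14, and for Ncoa4 neither side was called alone. Groups of 3 libraries are too small for a test of single outlying libraries.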

How the results depend on the processing

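The diet calls of Blvra and Tfrc in both macrophage populations and of Slc40a1 in CD11c-negative macrophages held under each of 13 alternatives, and no called gene changed sign. The number of the 10 genes called, in the order diet in MHCII-low, CD11c-negative and monocyte-derived cells, was 3, 4 and 2, and became 5, 7 and 5 with no filter on low counts and 5, 8 and 0 with only the groups compared in the fit. Leaving out each library gave 2 to 3, 3 to 4 and 1 to 7 calls. For obese CD11c-negative against MHCII-low macrophages 2 calls became 5 with no filter, 4 with a replicate block within diet by description number, 4 with only the groups compared and 1 to 2 leaving out a library. For obese CD11c-positive against CD11c-negative macrophages 1 call became 2 with no filter, 2 with only the groups compared and 0 to 1 leaving out a library. For lean CD11c-negative against MHCII-low macrophages DESeq2 gave 1 call in place of 0. The difference of diet changes between CD11c-negative and MHCII-low macrophages had 0 calls, 2 with no filter and 1 with DESeq2. Between monocyte-derived and MHCII-low cells 1 call became 2 with no filter, 0 with only the groups compared, 2 with DESeq2 and 0 to 6 leaving out a library. Between monocyte-derived and CD11c-negative cells 2 calls became 6 with no filter, 4 with the within-diet replicate block, 1 with only the groups compared and 1 to 8 leaving out a library. The causes were not tested. For obese monocyte-derived cells against CD11c-positive macrophages 7 calls became 6 to 9. Libraries of equal replicate number deviated together, with r over 0.1, in 17 of 18 obese pairs (0.0829 to 0.771), in 4 of 9 lean pairs by title number and in 5 of 7 by description number. With the within-diet replicate block the calls of Slc40a1 (log2 -1.70) and Blvrb in obese CD11c-negative against MHCII-low macrophages and of Fth1 in obese monocyte-derived against CD11c-positive cells were gained, that of Slc11a1 in the latter was lost, and no other of the 10 genes changed its call in the obese comparisons. In lean mice, where numbers were not taken to pair libraries, the block added Fth1 in monocyte-derived against CD11c-negative cells, for 10 calls in place of 9. Counts over all genes moved with the settings too. For diet they were 3946 in monocyte-derived cells (122 to 9903 over the alternatives) and 7030 in MHCII-low macrophages (3323 to 7291). In CD11c-negative macrophages the diet count was 7422 (4493 to 8053). Between obese populations they were 699 for CD11c-negative against MHCII-low (235 to 1332) and 801 for CD11c-positive against CD11c-negative (81 to 3172). Obese monocyte-derived against CD11c-positive cells had 8884 (6162 to 10171). Lean CD11c-negative against MHCII-low had 298 (135 to 649). Between diet changes they were 0 (0 to 123), 993 (315 to 2484) and 1459 (643 to 3124), in the order given above. Slc40a1 in monocyte-derived cells, at 4 to 43 counts, limits what depth can show.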

Other observations

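Beyond diet, pathway genes also differed between obese populations. In CD11c-positive against CD11c-negative macrophages Alas1, the first enzyme of heme synthesis, was higher, at a mean of 144 against 74.5 CPM (log2 0.95 ± 0.15, edgeR adjusted p = 0.00270), and Flvcr1, a heme exporter, at 71.2 against 51.6 CPM (0.46 ± 0.12, adjusted p = 0.0354). Cd163 was lower, at 67.3 against 187 CPM (-1.47 ± 0.20, adjusted p = 0.000399), Spic at 4.41 against 13.4 CPM (-1.60 ± 0.38, adjusted p = 0.0262) and Bach1 at 445 against 775 CPM (-0.80 ± 0.20, adjusted p = 0.0333). In obese monocyte-derived cells against CD11c-positive macrophages Slc39a14, a transporter of iron not bound to transferrin, was higher at 144 against 51.1 CPM (1.49 ± 0.27, adjusted p = 0.000260), and so was Slc7a11, the cystine importer, at 275 against 77.9 CPM (1.82 ± 0.62, adjusted p = 0.0305). Steap3 and Trf, which encodes transferrin, were lower there, with log2 differences of -1.62 ± 0.29 and -1.55 ± 0.15 (adjusted p = 0.000252 and 2.53e-07).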
